A study of Mus musculus with 8 samples.

Results

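The genes described here are 33 genes of Schwann cells, myelin and the axons they wrap, taken by name from a list and matched by exact symbol to probe sets that name a single gene. Of these, 31 were measured, by 73 probe sets, among 18193 genes measured in all; Prx and Gldn matched no probe set. Each gene was read from its brightest probe set over the 8 arrays. The genes were sorted by role into 17 of the myelin sheath and its programme (15 measured), 7 of the Schwann lineage at large, 7 of non-myelinating or immature Schwann cells, and 2 axonal potassium channels. L1cam, Ncam1 and Gap43, placed with the non-myelinating genes, are also made by axons.

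Inguinal white adipose tissue, the subcutaneous fat of the groin, was compared between 4 LPA4-KO mice (KO) and 4 wild-type littermates (WT), each with its own array. All were C57BL/6 males aged 12 weeks on standard chow, and the KO males carried the mutation of the X-linked receptor gene Lpar4 as Lpar4 -/Y. Lpar4 encodes a G protein-coupled receptor for lysophosphatidic acid, and the comparison addresses what differs in this fat depot without it. Values are log2 signals as deposited, and differences are KO minus WT.

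Schwann cells are the glia of peripheral nerves. Those around large axons wrap them in compact myelin, a membrane stack held together by proteins such as Mbp and Pmp22 and rich in galactolipids, under the transcription factors Sox10 and Egr2. Those around small axons, which include the sympathetic fibres of fat, bundle the axons without making myelin. The axonal channels Kcna1 and Kcna2 cluster beside the nodes of myelinated fibres. In whole fat a lower signal of such genes cannot be told apart as fewer cells of a type or less RNA per cell.

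Promoter stretches of 3 genes are shown because these genes fell in a test below and hold one of the letter strings searched. They cover bases -250 to -31 before the RefSeq transcription start on the GRCm38.p6 build, 5′ to 3′ on the gene's strand, and capitals mark the matches. Cnp encodes a myelin-associated phosphodiesterase (chr11:100574689-100574908, plus strand), Mal a raft proteolipid of myelin and epithelia (chr2:127656726-127656945, minus strand), and Pmp22 a compact-myelin membrane protein (chr11:63128732-63128951, plus strand).
Cnp: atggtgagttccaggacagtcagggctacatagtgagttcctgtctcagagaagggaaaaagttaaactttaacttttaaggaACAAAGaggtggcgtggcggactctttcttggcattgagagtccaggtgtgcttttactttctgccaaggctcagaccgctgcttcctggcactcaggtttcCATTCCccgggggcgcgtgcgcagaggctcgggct
Mal: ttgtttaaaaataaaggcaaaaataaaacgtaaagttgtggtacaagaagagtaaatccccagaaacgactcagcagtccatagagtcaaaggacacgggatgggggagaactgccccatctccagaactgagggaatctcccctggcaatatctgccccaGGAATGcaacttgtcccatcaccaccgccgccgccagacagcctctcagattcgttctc
Pmp22: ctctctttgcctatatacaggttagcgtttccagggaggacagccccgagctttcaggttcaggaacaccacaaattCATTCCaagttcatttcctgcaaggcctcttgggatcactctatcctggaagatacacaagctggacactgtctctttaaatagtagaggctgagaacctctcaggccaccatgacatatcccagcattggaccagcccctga

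The strings were searched on both strands of the same 220-base window in all 32851 promoters of the table. GGAATG (or CATTCC), a core bound by TEAD factors, began at base -65 of Cnp, -89 of Mal and -173 of the Pmp22 promoter shown. It was found in 11.4% of all windows. Other Pmp22 promoters held none of the strings searched. ACAAAG, a core bound by SOX factors, began at base -167 of Cnp and was found in 14.8% of all windows. Egr2, which passed below only with the replicate number as a block, was not counted here. Of the 12 genes that passed a test below without the block, 7 had promoters in the table, 12 in all. Among these 12, GGAATG was found in 3, ACAAAG in 2 (Cnp and 1 of the Plekhb1 promoters), and the SOX core ACAATG (9.78% of all windows) and the EGR site GCGNGGGCG (3.74%) in 0. These matches are letters in a window, not sites shown to be bound.

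Over all genes tested, Cnp and the axonal channel Kcna2 fell, 2 of the 31 measured members, and 0 rose (limma with Benjamini-Hochberg adjustment over all 18193 genes). The share of all genes that fell in this test was 1.64%, and the share that rose was 2.39%. With the replicate number as a block, limma passed 0 members and 0 genes in all. Its unadjusted p was then under 0.05 for 3703 of the 18193 genes and 17 of the 31 members, of which 14 varied. Without the block it was so for 4172 genes and 17 members, of which 13 varied. The others were near constant, as described below. Leaving out any 1 of the 8 arrays also reduced the 2 calls over all genes, to 1 member without WT 4 (Cnp) and 0 without any other array. In 13 members every KO array was below every WT array, and in 0 members every KO array was above; of all genes, 7% were lower and 9.2% higher without overlap. Of those 13, L1cam and Ncam1 were near constant. The other 11 varied, against 15% of varying genes lower without overlap, and each differed by at least 0.2, against 3.13% of all genes.

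The members split by whether their deposited value varied at all. For 15 members the 8 values spanned no more than 0.0012, and the probe sets of these genes are called near constant (SD over the arrays under 0.01), as were 78.7% of all probe sets. How such values arose is not given in the sources used here, and for these genes a missing difference says nothing about the tissue. The other 16 members varied, which includes any difference between the genotypes. Of all genes, 28.4% varied. When only the 5173 varying genes were tested, 12 of the 16 members in that fit fell and 0 rose, against 12.2% of varying genes lower and 14.9% higher. With the replicate number as a block 13 of the 16 fell, Egr2 being the additional one, against 9.24% of varying genes lower and 10.3% higher. The count of 12 dropped to 4 without KO 1, KO 3 or WT 2, to 5 without WT 3 and to 6 without KO 4. Cnp, Dhh, Kcna1 and Kcna2 passed whichever array was left out.

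**Figure D1:**
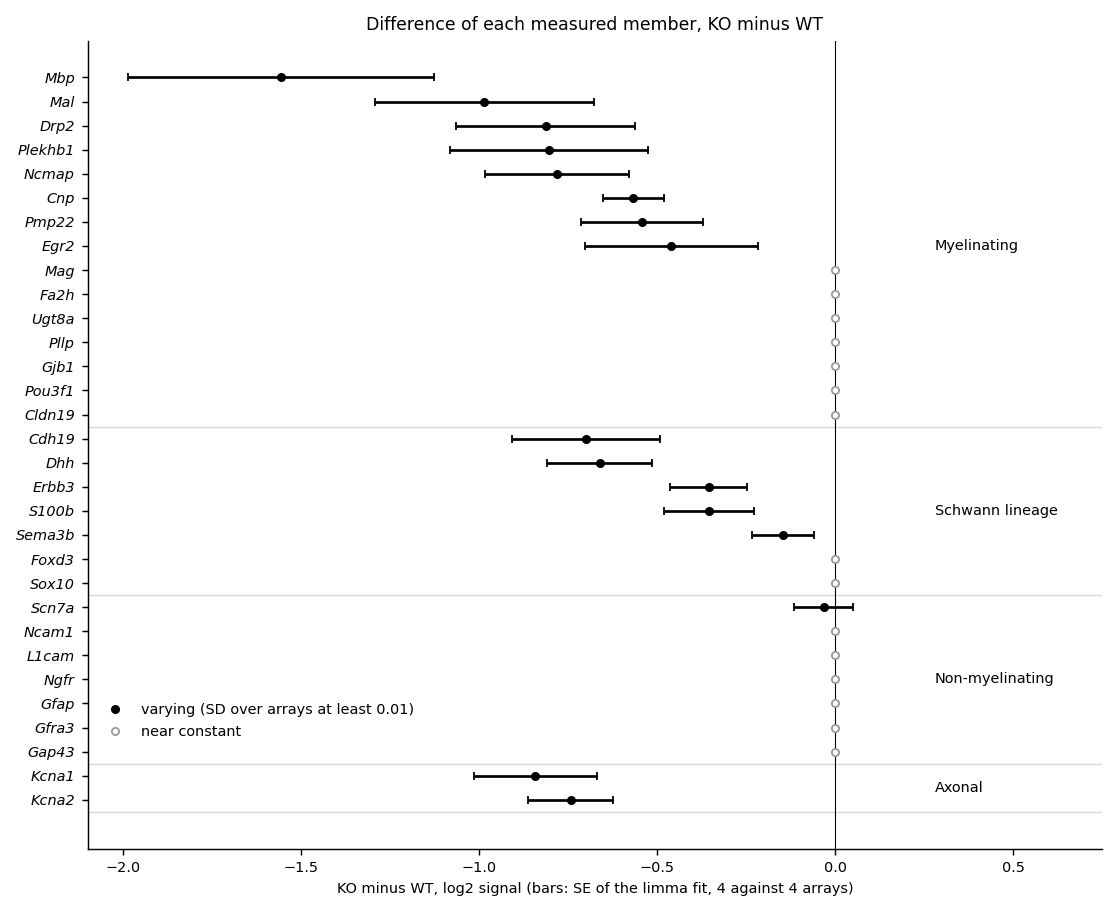
KO minus WT difference of the log2 signal (horizontal axis) for the 31 measured members, grouped by role, with bars for the standard error of the limma fit over 4 KO and 4 WT arrays. Filled points are varying genes and open points near-constant ones; the points farthest to the left are Mbp (-1.56) and Mal (-0.99), and the open points lie at 0.

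Among the myelin sheath genes, all 8 that varied were lower in KO. The median difference over the 15 measured genes was -0.46, and over the 8 varying genes -0.79, against 0.00003 over all genes and 0.01 over all varying genes. Of the 15, 1 fell over all genes, against 1.64% of all genes. Among the 8 varying genes 7 fell, and 8 with the replicate block, against 12.2% and 9.24% of all varying genes. Without WT 2 the median over the 15 was -0.28, as was the difference of Egr2.

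Myelin basic protein Mbp, which joins the inner faces of the myelin membrane, differed most. Its signal was 10.10, 11.20, 11.25 and 10.15 in WT 1 to 4 and 8.48, 9.93, 8.88 and 9.20 in KO 1 to 4. The genotypes did not overlap: the highest KO array, KO 2, lay below the lowest WT array, and WT 2 and WT 3 stood above WT 1 and WT 4. The WT mean was 10.68 ± 0.64 and the KO mean 9.12 ± 0.61 (SD, n = 4 each). Their difference was -1.56 ± 0.43 (SE), or 2.94-fold. Limma gave an adjusted p of 0.100 over all genes and 0.148 there with the replicate block. Among varying genes Mbp fell without (0.0245) and with the block (0.0272).

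Cnp, the phosphodiesterase of myelin-forming glia shown above, had the smallest standard error of the varying myelin sheath genes. It read 9.36, 9.56, 9.54 and 9.27 in WT 1 to 4 and 8.75, 8.98, 8.80 and 8.93 in KO 1 to 4, with no overlap. The difference was -0.57 ± 0.085 (SE, n = 4 against 4), for which limma gave an adjusted p of 0.0294 over all genes, lost there with the replicate block (0.112). Among varying genes it fell in both fits (0.00671 and 0.0242). Its probes can be shared with other transcripts, as the suffix of the probe set says.

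Mal, whose proteolipid organises myelin membrane lipids, read 7.34, 8.34, 8.34 and 7.45 in WT 1 to 4 and 6.59, 7.31, 6.69 and 6.94 in KO 1 to 4. KO 2 again came closest to the WT arrays, without reaching them. The difference was -0.99 ± 0.31 (SE), 1.98-fold, for which limma gave an adjusted p of 0.130 over all genes; among varying genes it fell without (0.0353) and with the block (0.0354). Pmp22, whose dosage is altered in inherited human neuropathies, read 10.72, 11.33, 10.97 and 10.70 in WT and 10.22, 10.66, 10.35 and 10.31 in KO. Its genotypes did not overlap, and WT 2 was the highest array. The difference was -0.54 ± 0.17 (SE), and limma gave adjusted p values of 0.131 over all genes, 0.0379 among varying genes and 0.0225 there with the block.

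Ncmap, a membrane protein of non-compact myelin, read 7.06, 7.64, 7.86 and 7.16 in WT 1 to 4 and 6.43, 6.76, 6.64 and 6.76 in KO 1 to 4. Drp2, which binds periaxin at the outer Schwann cell membrane, read 7.44, 8.18, 8.11 and 7.34 in WT and 6.82, 7.34, 6.75 and 6.91 in KO. Neither overlapped, although KO 2 and WT 4 of Drp2 were nearly equal. Ncmap differed by -0.78 ± 0.20 and Drp2 by -0.81 ± 0.25 (SE), with limma adjusted p values of 0.0860 and 0.125 over all genes. Among varying genes both fell without the block (0.0209 and 0.0337) and with it (0.0319 and 0.0349).

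Plekhb1, a pleckstrin homology protein of glial and sensory cells, read 7.40, 8.08, 8.17 and 7.33 in WT 1 to 4 and 6.63, 7.46, 6.84 and 6.84 in KO 1 to 4. KO 2 lay above WT 1 and WT 4, so the genotypes overlapped. The difference was -0.80 ± 0.28 (SE), and limma gave adjusted p values of 0.156 over all genes, 0.0469 among varying genes and 0.0330 there with the block. Egr2, the transcription factor that switches on the myelin programme, read 6.71, 7.29, 6.60 and 6.41 in WT and 6.08, 6.77, 6.11 and 6.21 in KO, again with KO 2 inside the WT range. The difference of -0.46 ± 0.24 (SE) passed limma only among varying genes with the replicate block (0.0319), not without it (0.141) or over all genes (0.321). Egr2 is also an immediate early gene of other cells, and only 25.8% of all probe sets had a lower KO mean.

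The remaining myelin sheath genes gave no information on the genotypes. Mag, Gjb1, Fa2h, Ugt8a, Pllp, Cldn19 and Pou3f1 were near constant in the probe set used. They encode an adhesion molecule facing the axon (Mag), a gap junction protein (Gjb1), galactolipid enzymes (Fa2h and Ugt8a), a relative of Mal (Pllp), a tight junction protein (Cldn19) and a factor of promyelinating cells (Pou3f1). A dimmer probe set of Ugt8a did vary, and read 6.21, 7.07, 6.84 and 6.27 in WT 1 to 4 and 5.76, 6.35, 5.95 and 5.81 in KO 1 to 4. KO 2 overlapped the WT arrays, and the difference of -0.63 did not pass limma (adjusted p = 0.202 over all probe sets, 0.0633 among varying probe sets).

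**Figure D2:**
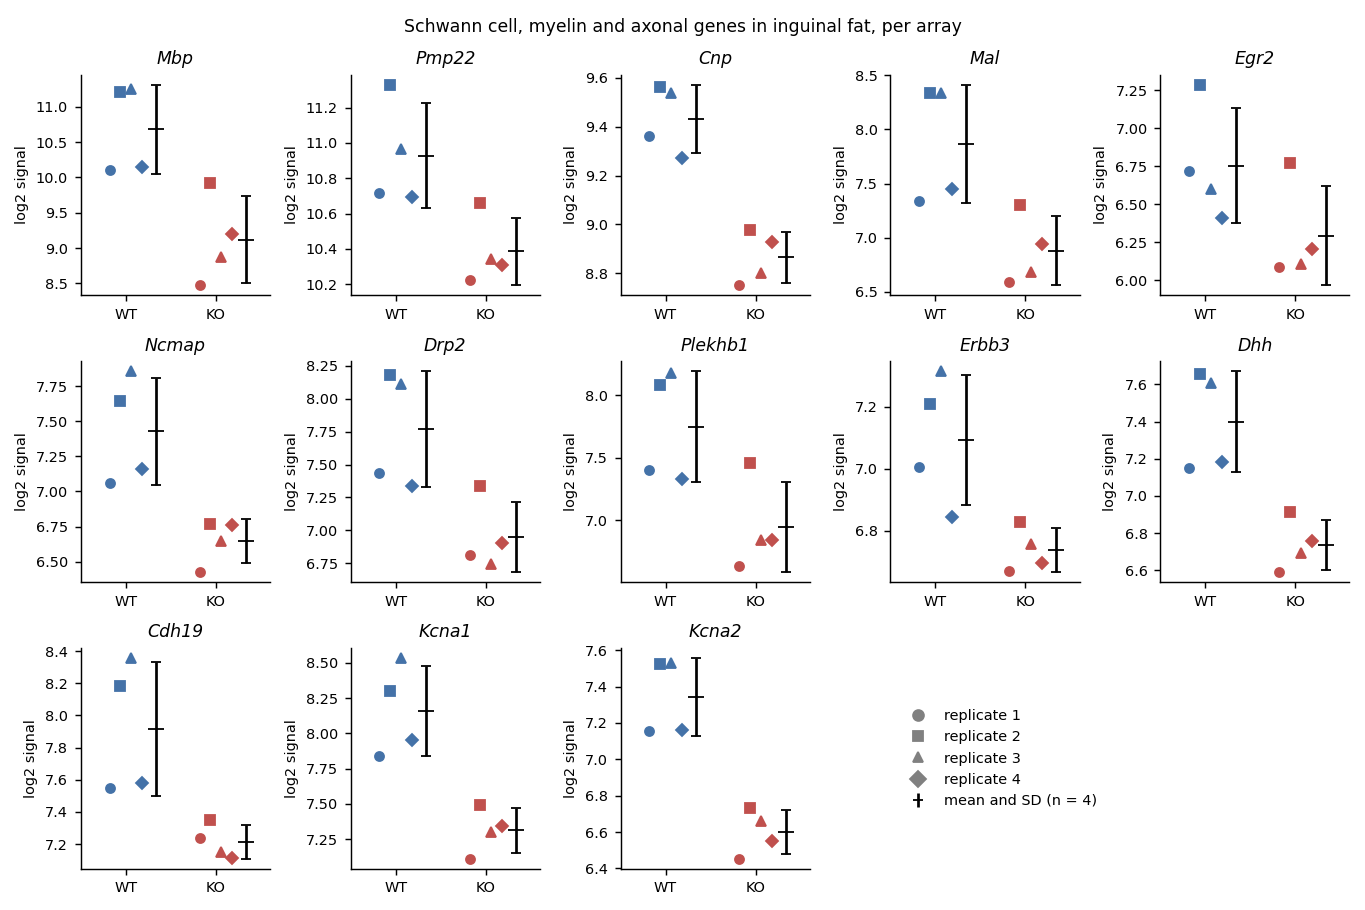
Log2 signal of the 13 members described array by array (vertical axes, a separate scale for each gene) in 4 WT (blue) and 4 KO (red) arrays, with marker shapes for replicate numbers and the mean and SD beside the points. KO 2 (square) is the highest KO array in all 13 genes, and WT 2 or WT 3 the highest WT array.

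Of the 7 genes of the Schwann lineage at large, 5 varied, 0 fell over all genes, and Dhh, Cdh19 and Erbb3 fell among varying genes with and without the replicate block. Of all varying genes, 9.24% and 12.2% fell in these fits. The median difference over the 7 was -0.35. Dhh, the hedgehog ligand by which Schwann cells organise the nerve sheath, read 7.15, 7.66, 7.61 and 7.18 in WT 1 to 4 and 6.59, 6.91, 6.69 and 6.75 in KO 1 to 4, with no overlap. Its difference was -0.66 ± 0.15 (SE), with limma adjusted p values of 0.0629 over all genes, 0.0149 among varying genes and 0.0246 there with the block.

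Cdh19, a cadherin typical of Schwann cell precursors and their descendants, read 7.55, 8.18, 8.36 and 7.58 in WT and 7.24, 7.35, 7.15 and 7.11 in KO. Erbb3, the neuregulin receptor through which axons keep Schwann cells alive, read 7.01, 7.21, 7.31 and 6.84 in WT and 6.67, 6.83, 6.76 and 6.70 in KO. Neither overlapped, but KO 2 and WT 4 of Erbb3 were nearly equal. The differences were -0.70 ± 0.21 and -0.36 ± 0.11 (SE), with limma adjusted p values of 0.117 and 0.121 over all genes. Among varying genes they were 0.0309 and 0.0378, and 0.0436 and 0.0401 with the block.

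The calcium-binding protein S100b, a common Schwann cell marker that adipocytes also make, differed by -0.35 ± 0.13 (SE) without passing limma (adjusted p = 0.163 over all genes and 0.0556 among varying genes). Its KO arrays ran from 6.50 to 6.64 and its WT arrays from 6.60 to 7.13, so only WT 1 fell inside the KO range. The secreted semaphorin Sema3b differed by -0.15 and did not pass. Sox10, the factor that defines the lineage, was near constant in all 3 of its probe sets, and Foxd3, a factor of the early neural crest, in its only one. The label of Schwann cell genes therefore rests here on the other markers, since the lineage's defining factor carried no signal that varied.

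Among the 7 genes of non-myelinating or immature Schwann cells 0 passed, and only Scn7a varied. Scn7a, a sodium channel also made by other cells of connective tissue, read 10.49, 10.70, 10.42 and 10.40 in WT 1 to 4 and 10.59, 10.44, 10.49 and 10.36 in KO 1 to 4, fully intermixed. Its difference was -0.03 ± 0.08 (SE), with a limma adjusted p of 0.862. A dimmer probe set of Scn7a differed by -0.19, with only WT 3 inside the KO range. It did not pass limma (adjusted p = 0.0867 among varying probe sets), and a further probe set differed by -0.05. The neurotrophin receptor Ngfr, the adhesion molecules L1cam and Ncam1, the growth-cone protein Gap43, the glial filament Gfap and the artemin receptor Gfra3 were near constant. Ncam1 was so in all 7 of its probe sets, and Ngfr and Gfap each in all 3. The measured values therefore allow no comparison between myelinating and non-myelinating Schwann cells beyond Scn7a.

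Both channel genes listed as axonal were lower in KO. Which cells of the fat made their RNA was not tested. Kcna2 read 7.15, 7.52, 7.53 and 7.16 in WT 1 to 4 and 6.45, 6.73, 6.66 and 6.55 in KO 1 to 4. Kcna1 read 7.84, 8.30, 8.53 and 7.95 in WT and 7.11, 7.50, 7.30 and 7.34 in KO. In both genes the genotypes were well apart, with WT 2 and WT 3 highest. Kcna2 differed by -0.74 ± 0.12 (SE, 1.67-fold) and fell over all genes (limma adjusted p = 0.0346), a call lost there with the replicate block (0.0729). Kcna1 differed by -0.84 ± 0.17 (SE, 1.79-fold) and missed the threshold over all genes (limma adjusted p = 0.0532). Among varying genes both fell without (0.00716 and 0.0121) and with the block (0.0192 and 0.0242).

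Further probe sets of the same genes, which read other stretches of the same transcripts in the same RNA, were compared next. Of the 73 probe sets 32 varied, and all 32 were lower in KO on average. In 20 of them every KO array was below every WT array, against 15% of varying genes, each read from its brightest probe set. Tested among varying probe sets, 20 passed limma, all of them lower, in 12 members, against 13.1% of all varying probe sets lower. Over all probe sets 4 passed, against 1.28%: 2 of Kcna2, and 2 of Cnp, of which 1 was near constant with a difference of -0.0003.

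Mbp had 8 probe sets, of which 7 varied, with differences from -1.59 to -0.15. The first 5 of these lay between -1.59 and -1.51, whereas another gave -0.77, with overlap, and the last, whose suffix marks probes shared with other transcripts, -0.15. Several of the first 5 also carry a suffix for probes that can be shared with other transcripts. All 3 varying sets of Kcna1 (-1.02 to -0.84) and both of Kcna2 (-0.74 and -0.71) and Mal (-1.19 and -0.99) separated the genotypes. The second varying set of Cnp gave -0.18, with KO 2 and WT 4 overlapping, and that of Drp2 -0.68, with KO 2 above WT 4.

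**Figure D3:**
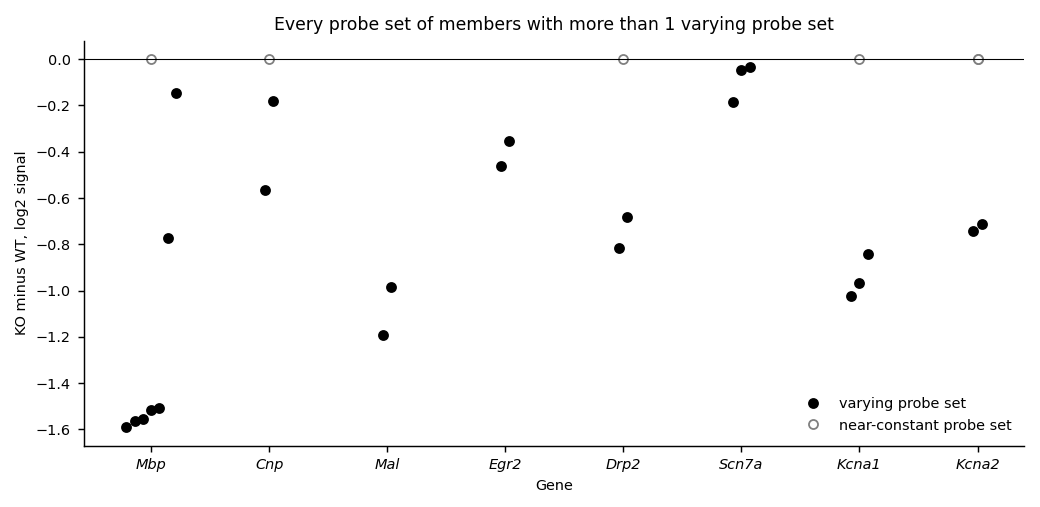
KO minus WT difference of the log2 signal (vertical axis) for every probe set of the 8 members that had more than 1 varying probe set (horizontal axis). Filled points are varying and open points near-constant probe sets; 5 of the Mbp sets lie together between -1.59 and -1.51, and those of Scn7a lie between -0.19 and -0.03.

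The members also moved together between mice of the same genotype. For each gene the genotype mean was removed, so that a correlation over the 8 arrays no longer holds the difference between KO and WT. Over the 120 pairs of the 16 varying members the median Pearson r was 0.85 and 117 were positive, whereas over all pairs of varying genes the median was 0.01. These pairs share the same 8 arrays and the same RNA, so the medians are descriptions.

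Against Mbp, deviations of 15 members were tested by exact permutation within genotype (two-sided, 576 arrangements), with Benjamini-Hochberg adjustment over the 15. For 10 members the adjusted p of r was under 0.05. When the KO and WT arrays of a number were kept together, 24 arrangements remained and 0 members passed after adjustment. The exact permutation p of r was then 0.0417, the smallest they can give, for 7 members. The closest were Plekhb1 (r = 0.98, rho = 0.90, exact permutation p = 0.00521 and 0.0139, adjusted p = 0.0195 and 0.0347) and Mal (r = 0.97, rho = 0.86, exact permutation p = 0.00174 and 0.00347, adjusted p = 0.0195 and 0.0174). Dhh followed, with r = 0.95 and rho = 0.83 (exact permutation p = 0.00521 and 0.0139, adjusted p = 0.0195 and 0.0347). An r over 0.9 was reached by 7 of the 15 members, against 1.12% of varying genes, the members included. Of the axonal channels, Kcna1 had r = 0.92 and rho = 0.90 (exact permutation p = 0.00521 and 0.00347, adjusted p = 0.0195 and 0.0174).

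Without KO 2 and WT 3, the arrays farthest from the median deviation of Mbp, r was 0.95 for Plekhb1, 0.96 for Mal, 0.96 for Dhh and 0.93 for Kcna1, over 6 arrays. Egr2 (r = 0.72, rho = 0.57, exact permutation p = 0.0833 and 0.174), Cdh19 (0.78 and 0.67, exact permutation p = 0.0764 and 0.125), S100b (0.76 and 0.81, exact permutation p = 0.0486 and 0.0347) and Sema3b (0.56 and 0.62, exact permutation p = 0.179 and 0.181) did not pass after adjustment. Scn7a did not follow Mbp (r = 0.00, rho = -0.21, exact permutation p = 0.995 and 0.635).

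**Figure D4:**
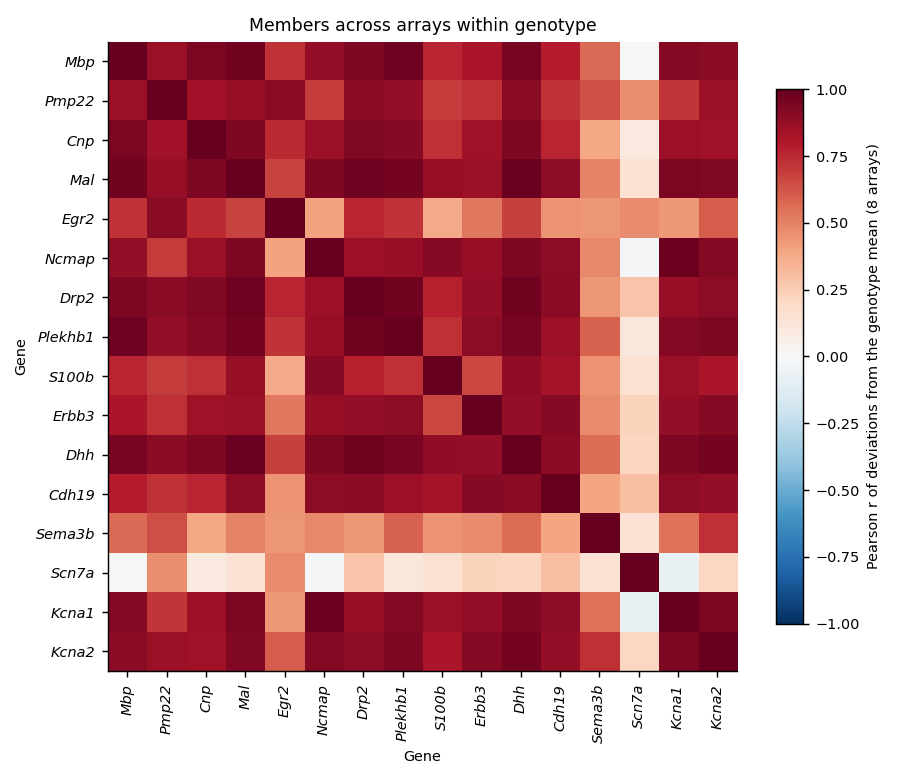
Pearson r between the 16 varying members (both axes) over the 8 arrays, computed on deviations from the genotype mean, with colour from -1 (blue) to 1 (red). Most pairs are dark red, with a median of 0.85, while the row and column of Scn7a are pale and those of Sema3b intermediate.

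The shared movement had the same arrays at its ends. Of the 13 genes described array by array, all 13 were highest among KO arrays in KO 2, and 11 were lowest in KO 1. Among WT arrays 8 were highest in WT 3 and 5 in WT 2, and 7 were lowest in WT 1 and 6 in WT 4. The mean over the 13 genes was 7.91, 8.50, 8.48 and 7.89 in WT 1 to 4 and 7.24, 7.73, 7.36 and 7.43 in KO 1 to 4. Replicates carry the labels' numbers 1 to 4, and all 13 genes were lower in KO in each of the 4 number pairs. For the 11 of them whose genotypes did not overlap this outcome was fixed, since every KO array lay below every WT array.

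Skeletal muscle genes differed by replicate number rather than by genotype, with a list mean over 12 genes of 8.94 to 9.61 in numbers 1 and 2 and 6.58 to 7.34 in numbers 3 and 4. Each of the 13 genes was lower in KO among numbers 1 and 2 and among 3 and 4, which the lack of overlap fixed for 11 of them. Mbp differed by -1.45 in the former and -1.66 in the latter, Cnp by -0.60 and -0.54, Kcna1 by -0.77 and -0.92, and Kcna2 by -0.75 and -0.74.

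Further Schwann cell and myelin genes, from a list of 22 measured genes of which 8 varied, included 5 varying genes that were lower in KO and 3 that were higher. Over all genes 2 fell and 0 rose, against 1.64% and 2.39% of all genes. Among varying genes 5 of the 8 fell, with and without the block, against 9.24% and 12.2% of all varying genes. The list's median difference was -0.0001. The small heat shock protein Cryab, also made by muscle and other cells, read 10.20, 10.39, 10.03 and 10.26 in WT 1 to 4 and 9.45, 9.75, 9.47 and 9.43 in KO 1 to 4. It fell by 0.69 over all genes (limma adjusted p = 0.0294; 0.0755 with the replicate block) and passed among varying genes with the block (0.0192). The second call over all genes, Lgi4, was near constant and differed by -0.0003. Cadm4, the Schwann cell partner of axonal adhesion molecules (-0.67), and the adhesion molecule Chl1 (-0.52) separated the genotypes and fell among varying genes (limma adjusted p = 0.0231 for both; 0.0319 and 0.0342 with the block). The transcription factor genes Zeb2 (0.22) and Jun (0.04), and Art3 (0.09), were higher in KO without passing.

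Of 24 measured axon and neuron genes, 23 were near constant, among them the sympathetic enzyme gene Th. The one that varied, Stmn2, a tubulin-binding protein of growing axons, read 7.62, 7.94, 7.93 and 7.58 in WT 1 to 4 and 7.20, 7.49, 7.19 and 7.37 in KO 1 to 4, without overlap. It differed by -0.46 ± 0.12 (SE) and fell among varying genes (limma adjusted p = 0.0231, 0.0371 with the block), not over all genes (0.0852).

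Of 9 measured genes of trophic signals between axons and glia, 3 varied, and Ntrk2 fell over all genes. Ntrk2, the receptor for brain-derived neurotrophic factor, read 11.08, 10.98, 10.96 and 11.14 in WT 1 to 4 and 10.58, 10.66, 10.68 and 10.67 in KO 1 to 4. Its arrays did not follow the order of the myelin genes, with WT 2 and WT 3 the lower WT arrays. It differed by -0.39 ± 0.05 (SE; limma adjusted p = 0.0188, lost over all genes with the replicate block at 0.107, and passing among varying genes with the block at 0.0266). Ret, the signalling receptor for glial cell line-derived ligands, differed by -0.35 and fell among varying genes (limma adjusted p = 0.0190, 0.0227 with the block).

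Other cell types were read from marker lists. Adipocyte genes were bright in all arrays, with Adipoq between 13.61 and 14.02. Over all genes 2 of the 7 rose and 0 fell, without overlap of the genotypes: the adipokine genes Adipoq by 0.25 (limma adjusted p = 0.0486) and Retn by 0.26 (0.0465). Both calls were lost there with the replicate block (0.175 and 0.107). With the block among varying genes Retn passed limma (0.0337) and Adipoq did not (0.0534), while 1 other adipocyte gene fell. The lowest difference of the adipocyte list was -0.38, and 1 varying gene of it was lower in KO without overlap. The mean of 10 endothelial genes ran from 8.81 to 9.08 in KO and from 8.99 to 9.26 in WT. The genotypes' ranges of this mean overlapped. Of the 10 genes, 1 (Esam) fell over all genes, against 1.64% of all genes. Among the 9 that varied 4 fell (3 with the block), against 12.2% (9.24%) of all varying genes. The mean of 6 mural genes ran from 9.14 to 9.29 in KO and from 9.47 to 9.67 in WT, without overlap. Of the 6 mural genes, Acta2 (-1.26) fell over all genes, 2 fell among varying genes and 3 there with the block, while Rgs5 was 0.12 higher without passing and Cnn1 was near constant. The part of these cells in the myelin result was not tested.

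Immune and epithelial lists moved differently. The mean of 6 macrophage genes ran from 10.31 to 10.56 in KO and from 9.31 to 10.69 in WT, lowest in WT 3, where myelin genes were high. The mean of 6 T lymphocyte genes ran from 6.88 to 7.12 in KO and from 6.59 to 7.06 in WT, higher in WT 1 than in the other WT arrays. In neither list did a gene pass. All 6 epithelial genes, and all 4 B lymphocyte genes, were near constant, and of 6 melanocyte genes 2 varied and 0 passed.

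**Figure D5:**
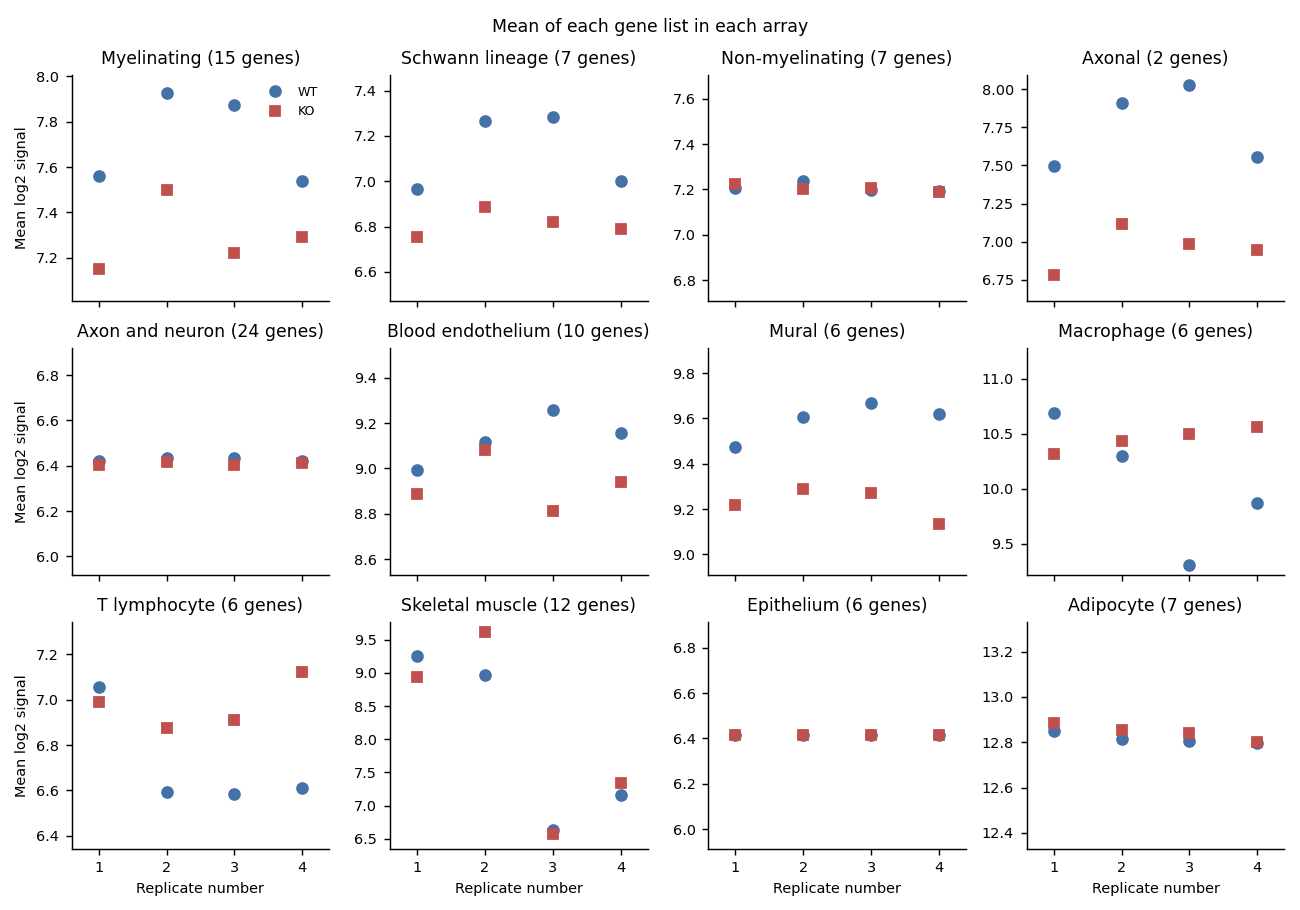
Mean log2 signal of each gene list (vertical axes, separate scales) against the replicate number for WT (blue circles) and KO (red squares). The myelinating, Schwann lineage, axonal and mural means lie lower in every KO array than in the lowest WT one. The skeletal muscle mean separates numbers 1 and 2 from 3 and 4. The non-myelinating, axon and neuron, and epithelial means lie nearly level, and most or all of their genes were near constant. By a small margin the axon and neuron mean also lies lower in every KO array (at most 6.416) than in the lowest WT one (6.420).

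The targeted gene Lpar4 has 3 probe sets. One of them ran from 6.80 to 7.04 in WT and from 5.74 to 5.91 in KO (limma adjusted p = 0.00911 over all probe sets naming a single gene). The others were 0.71 and 0.53 higher in KO, with every KO array above every WT array, but did not pass limma (adjusted p = 0.134 and 0.119). All 3 thus separated the genotypes, and only the first was lower in KO. Where they lie relative to the deleted part is not given in the sources used here.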

How the data were processed

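Gene expression was measured on 1-colour arrays, 1 per mouse, with 100 ng of total RNA each. The authors deposited log2 values per probe set, and the submitters' processing notes list R 2.14.0. How background and normalisation were handled is not given in the sources used here. Array medians ran from 6.73 to 6.74, and precision is limited by there being 4 arrays a group.

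Of 45101 probe sets, 64 controls, 932 listed with several genes and 9160 with no single gene were left out. The brightest of the remaining 34945 stood for each of 18193 genes. KO and WT were compared with limma 3.58.1 in R 4.3.3 (Benjamini-Hochberg, threshold 0.05) over all genes, and over genes with an SD of at least 0.01. Exact permutation tests used scipy 1.17.1. Same-numbered arrays deviated together (r = 0.315, 0.486, 0.189 and 0.244 for numbers 1 to 4), so the numbers were taken to pair the samples, on this basis alone. KO 3 correlated more with WT 4 (0.364), and KO 4 with WT 3 (0.266), so within numbers 3 and 4 the pairing is not specific. In simulated data with 18193 genes, 54% of genes changed by 0.6 were recovered, and 84% with 5173. The simulated noise was normal and independent for each gene and array, without the pairs or the shared movement described above.

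Members, lists and motifs were chosen with earlier results of these data known. Values in all 8 arrays are given for members that passed in any of the 4 fits, or whose genotypes did not overlap with a difference of at least 0.2; of the other lists, at most 4 passing genes each. Alternatives are in the closing section. Leaving out arrays, or blocking numbers 1 and 2 against 3 and 4, among varying genes, fitting every probe set, and permuting whole pairs, were added after seeing the data. The limma p-values set each difference against the spread between arrays of a genotype, after removing the block where one was fitted. Permutation p-values refer to the possible arrangements of the arrays.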

Additional observations from a re-analysis of the deposited data

How the results depend on the processing

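No difference of the 13 genes given array by array changed sign in any alternative run. Blocks and the choice of genes tested leave these differences as they are. Leaving out an array could not reverse those of the 11 genes without overlap. Over all genes, 733 genes passed, against 0 with the replicate block, 1402 when only varying genes were tested, and 10 to 253 when 1 array was left out. Members lower in KO numbered 2, against 0 with the replicate block, 12 among varying genes, 13 there with the replicate block, 1 when numbers 1 and 2 formed one block and 3 and 4 another, 4 with arrays centred on varying probe sets, and 0 to 1 when 1 array was left out. Among varying genes, leaving out 1 array gave 4 to 12. The median of myelinating genes was -0.46, against -0.79 among varying genes in both fits and -0.60 to -0.28 when 1 array was left out. That of non-myelinating genes was -0.0001, against -0.0328 for Scn7a, the only one that varied. The medians of these lists therefore allow no comparison between them. The median of Schwann lineage genes moved from -0.35 to -0.18 with the mean of all probe sets. That mean also moved Mbp from -1.56 to -1.08, Cnp from -0.57 to -0.25, Kcna2 from -0.74 to -0.36 and Kcna1 from -0.84 to -0.71. Dhh moved from -0.66 to -0.33, Erbb3 from -0.36 to -0.18, Drp2 from -0.81 to -0.50 and Egr2 from -0.46 to -0.41. Mal moved the other way, from -0.99 to -1.09. The mean of all probe sets includes near-constant ones. The median correlation of members, 0.85, was 0.80 with the replicate block. Relations with Mbp that passed numbered 10, against 0 with the replicate block, that is, with pairs kept together. The replicate block changed no other call of the 13 genes than those given beside them. The cause of these changes was not tested. With 4 arrays a group and near-constant values for 15 members, smaller differences could not be seen.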
